A study of Drosophila melanogaster with 2 samples.

Results

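The cytosolic ribosomal protein genes of Drosophila melanogaster encode the protein part of the ribosome outside mitochondria, and the binding of the tagged protein CG32772 to their promoters is described here. Members were the protein-coding genes whose symbol begins with RpL or RpS and a digit, or with RpLP. The annotation holds 92 of them among 13968 protein-coding genes on the chromosome arms, 54 for the large and 38 for the small ribosomal subunit. A gene was called bound when the summit of a peak lay within 500 bp of any of its annotated transcription start sites. By that rule 44 members were bound and 48 were not. The rule for membership uses the gene names alone and not the signal.

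Binding was measured by ChIP-seq, that is, by pulling down the protein with the chromatin attached to it and sequencing the DNA that comes along. The chromatin came from whole embryos, 0 to 24 h old, of a transgenic fly strain that carries an insertion encoding CG32772 fused to eGFP, a green fluorescent protein, and the antibody was directed at the tag. There was 1 group with 2 biological replicates of that strain. Whole embryos mix all cell types and stages of that day, the strain is a single transgenic line, and the state of the untagged CG32772 gene is not given in the sources used here.

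Ribosomes need their proteins in matched amounts, and for many of these genes in flies the loss of 1 copy slows development and thins the bristles, the classic Minute phenotype. Their promoters are of an unusual kind in flies and mammals: transcription starts at a polypyrimidine stretch, the TCT initiator, in place of the common initiator and TATA box. A palindromic element, the DRE, is bound by the factor DREF and is frequent at promoters of housekeeping and replication genes. CG32772 itself carries zinc fingers, which in many proteins contact DNA.

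Promoter stretches of the 6 bound members with the highest signal and of the 2 unbound members with the highest remaining call are printed to show the sequence next to the start site at bound and unbound members. Another 3 bound members were added after their values were seen, because they carry the DRE. Each stretch runs from 120 bases before the most upstream start site of the gene to 10 bases into it, on the strand of the gene, and was read from the RefSeq copy of the dm6 genome. Capitals mark the sequence ATCGATA or its reverse complement (both are part of the DRE, TATCGATA), the sequence CGCAGCCAA, and TCTTT at the start site. Counts of TCTTT given later use the start site of most annotated transcripts, which can be a different one. TCTTT is thus marked in RpL32 but not counted there, and the reverse holds for RpS21. The strongest member, RpS27, lies at chr3R:25247505-25247634, minus strand.
RpS27: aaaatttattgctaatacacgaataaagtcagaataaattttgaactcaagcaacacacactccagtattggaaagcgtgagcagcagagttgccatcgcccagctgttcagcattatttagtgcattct
RpL34b lies at chr3R:9401217-9401346, minus strand.
RpL34b: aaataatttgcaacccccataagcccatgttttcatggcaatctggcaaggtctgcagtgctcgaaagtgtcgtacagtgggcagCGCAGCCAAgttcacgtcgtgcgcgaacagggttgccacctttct
RpL32 lies at chr3R:30046152-30046281, minus strand.
RpL32: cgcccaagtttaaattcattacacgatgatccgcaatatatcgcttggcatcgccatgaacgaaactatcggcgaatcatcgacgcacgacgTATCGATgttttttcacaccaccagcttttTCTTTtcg
RpL23A lies at chr3L:1668645-1668774, minus strand.
RpL23A: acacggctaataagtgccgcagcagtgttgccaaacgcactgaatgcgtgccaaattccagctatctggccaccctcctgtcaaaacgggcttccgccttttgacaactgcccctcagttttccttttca
RpS28b lies at chrX:9554503-9554632, plus strand.
RpS28b: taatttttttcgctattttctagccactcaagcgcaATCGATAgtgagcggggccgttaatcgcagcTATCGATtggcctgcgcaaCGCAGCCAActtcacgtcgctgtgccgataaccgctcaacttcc
RpS21 lies at chr2L:2855950-2856079, plus strand.
RpS21: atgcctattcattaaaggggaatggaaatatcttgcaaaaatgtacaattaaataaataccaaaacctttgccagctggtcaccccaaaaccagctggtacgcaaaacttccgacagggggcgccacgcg
The added members come next. RpL28 lies at chr3L:3222951-3223080, minus strand.
RpL28: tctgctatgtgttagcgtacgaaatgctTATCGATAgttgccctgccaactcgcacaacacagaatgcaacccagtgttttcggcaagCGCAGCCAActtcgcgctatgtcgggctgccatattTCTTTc
RpS25 lies at chr3R:11216278-11216407, minus strand.
RpS25: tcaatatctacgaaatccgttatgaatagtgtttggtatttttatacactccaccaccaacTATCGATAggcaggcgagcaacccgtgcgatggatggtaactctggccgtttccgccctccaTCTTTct
RpL27 lies at chr3R:25685042-25685171, minus strand.
RpL27: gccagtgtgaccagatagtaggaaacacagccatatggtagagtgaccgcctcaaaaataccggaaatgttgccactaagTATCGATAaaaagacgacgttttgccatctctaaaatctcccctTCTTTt
The unbound members follow. RpL30 lies at chr2L:19009297-19009426, minus strand.
RpL30: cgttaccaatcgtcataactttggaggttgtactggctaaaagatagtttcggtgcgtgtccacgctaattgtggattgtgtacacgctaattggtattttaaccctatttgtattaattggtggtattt
RpL13A lies at chr3R:5624354-5624483, plus strand.
RpL13A: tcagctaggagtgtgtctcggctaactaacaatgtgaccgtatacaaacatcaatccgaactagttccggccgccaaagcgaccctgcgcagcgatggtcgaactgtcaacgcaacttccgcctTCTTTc
The stretches of RpS27, RpL23A, RpS21 and RpL30 hold no capital letters, but a marked sequence can lie outside a stretch, as CGCAGCCAA does in RpS27. The summit of RpL32 lies upstream of its stretch.

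A shared sequence around CGCAGCCAA was noticed in several of the strongest members after their values were seen, and it is shown as a description. These lines give the members in which it begins upstream of the main start site, with 6 bases before it and 15 after it on the strand of the gene. RpL34b lies at chr3R:9401238-9401267 (minus), RpS28b at chrX:9554583-9554612 (plus), RpS21 at chr2L:2856077-2856106 (plus), RpL28 at chr3L:3222969-3222998 (minus) and RpS19a at chrX:16637868-16637897 (plus).
RpL34b: gggcagCGCAGCCAAgttcacgtcgtgcgc
RpS28b: gcgcaaCGCAGCCAActtcacgtcgctgtg
RpS21: gcgcagCGCAGCCAActtcacgtccagctg
RpL28: ggcaagCGCAGCCAActtcgcgctatgtcg
RpS19a: attaacCGCAGCCAActtcacgcgccttgt
Counted from the main start site, the start of most annotated transcripts, its first base lay at -35 to -20 in these 5 genes, and in 4 of them TTCACG followed after 1 further base. RpS27, RpL27A and RpS6 also hold CGCAGCCAA, but 20 to 33 bases inside the gene, and in RpS27 on the other strand. All 8 members that hold it within 250 bases before to 50 bases after the main start site were bound, and 0 of the 48 unbound members hold it. It occurs in the same window of 60 of 13876 other genes (0.432%), and 12 of those 60 (20%) were bound. Because the sequence was picked from bound members, its absence from unbound members is not independent evidence. The same holds for its excess at members' summits, given next. At the summits themselves, windows reaching 50 bp to either side held it at 5 of 44 members (11.4%), 0 of 1651 other promoter summits and 3 of 3004 summits away from promoters. A match is a description of the sequence and not a proven binding site.

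The deposited data are lists of peaks, each with a position, a summit and a signal per peak, which is the authors' own value and has no stated scale. The main list, called jointly on the libraries, held 4699 peaks on the chromosome arms. The own list of replicate 1 held 3012 and that of replicate 2 held 3537. Longer ranked lists, which include weak calls, held 130627 calls jointly, 113626 in replicate 1 and 77048 in replicate 2. Whether signals from separate lists share a scale is not stated, so they are set side by side here only as the lists give them. The highest signal of the main list, 2941, stood in the CG32772 gene, whose protein was tagged. Whether the insertion that encodes the tagged protein affects the signal there was not tested. The lists hold no read counts, so library depth is unknown, and intervals on shares cover counting error only.

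The share of bound promoters was larger among ribosomal protein genes than among all genes. In the main list 44 of 92 members (47.8%, exact binomial 95% interval 37.3 to 58.5%) had a summit within 500 bp of a start site, against 2339 of 13876 other genes (16.9%) and 17.1% of all genes. The own list of replicate 1 gave 37 members (40.2%) against 12.7% of other genes and 12.9% of all genes. The own list of replicate 2 gave 46 members (50%) against 13.8% of other genes and 14.1% of all genes. Both own lists together held 33 members (35.9%) against 10.6% of other genes and 10.8% of all genes. In each of these lists, therefore, the members' share stood well above the share of all genes. Once weak calls were counted the gap was small: 74 members (80.4%) had any joint ranked call within 500 bp, against 72.6% of other genes and 72.6% of all genes. Genes are not replicates of the experiment, so these shares, like all others given here, are descriptions and carry no test.

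The signal at bound members was of middling height. It ran from 87.1 to 515 with a median of 151, against a median of 146 and a range of 2.88 to 2593 at the other bound genes. The highest member ranked 207 among all main-list peaks and the lowest ranked 3354. Of the other bound genes, 196 (8.38%) had a higher signal than the best member, and 17.4% had a lower signal than the weakest bound member. The members were thus bound often, but none was among the 200 highest peaks of the genome. Each bound member had a peak of its own, with 44 distinct peaks at 44 members (neighbouring genes outside the set can share them), and 3 members had more than 1 summit.

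The highest member was RpS27 (FBgn0039300), a zinc-binding protein of the small subunit, whose peak spans chr3R:25247399-25247639 of the dm6 assembly. The joint signal there was 515, with 219 in replicate 1 and 282 in replicate 2, and the summit stood at -25 bp from the start site, where negative values are upstream. RpL34b (FBgn0037686), a protein of the large subunit, followed with a peak at chr3R:9401177-9401483 and a joint signal of 508, with 232 in replicate 1 and 260 in replicate 2. RpL32 (FBgn0002626), the large subunit gene long used as a reference transcript in fly work under the name rp49, had a peak at chr3R:30046216-30046471 with 405, 227 and 193 in the same order. Its summit lay at -196 bp, farther upstream than in the other 11 of the 12 strongest members. RpL23A (FBgn0026372), which in other eukaryotes sits at the exit of the tunnel through which the new protein leaves the ribosome, had a peak at chr3L:1668663-1668837 with 338, 130 and 217. RpS28b (FBgn0030136), of the small subunit, had a peak at chrX:9554490-9554679 with 327, 167 and 158. RpS21 (FBgn0015521), whose loss causes overgrowth of larval tissues in flies, had a peak at chr2L:2855986-2856154 with 281, 123 and 154. These 6 were found in the own lists of both libraries, and so were the next 6.

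Among the next 6, RpL14 (FBgn0017579; chr3L:8600882-8600971) had a joint signal of 267, with 109 in replicate 1 and 154 in replicate 2. RpS20 (FBgn0019936; chr3R:20821866-20822215) had 264, 133 and 136 in these lists. RpL28 (FBgn0035422; chr3L:3222927-3223082) had 225, 120 and 98.3, and like RpL32 and RpS28b it was higher in replicate 1. The other 9 of the 12 were higher in replicate 2. RpL41 (FBgn0066084; chr2R:24903855-24904204), which encodes a very short peptide, had 217, 94.2 and 119. RpL17 (FBgn0029897; chrX:6744191-6744330) had 210, 85.9 and 124. RpS25 (FBgn0086472; chr3R:11216189-11216538), a protein that some viral messages need for translation in yeast and mammals, had 203, 70.4 and 133. These 12 hold 7 large subunit and 5 small subunit genes, and their signals overlap between the subunits.

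**Figure D1:**
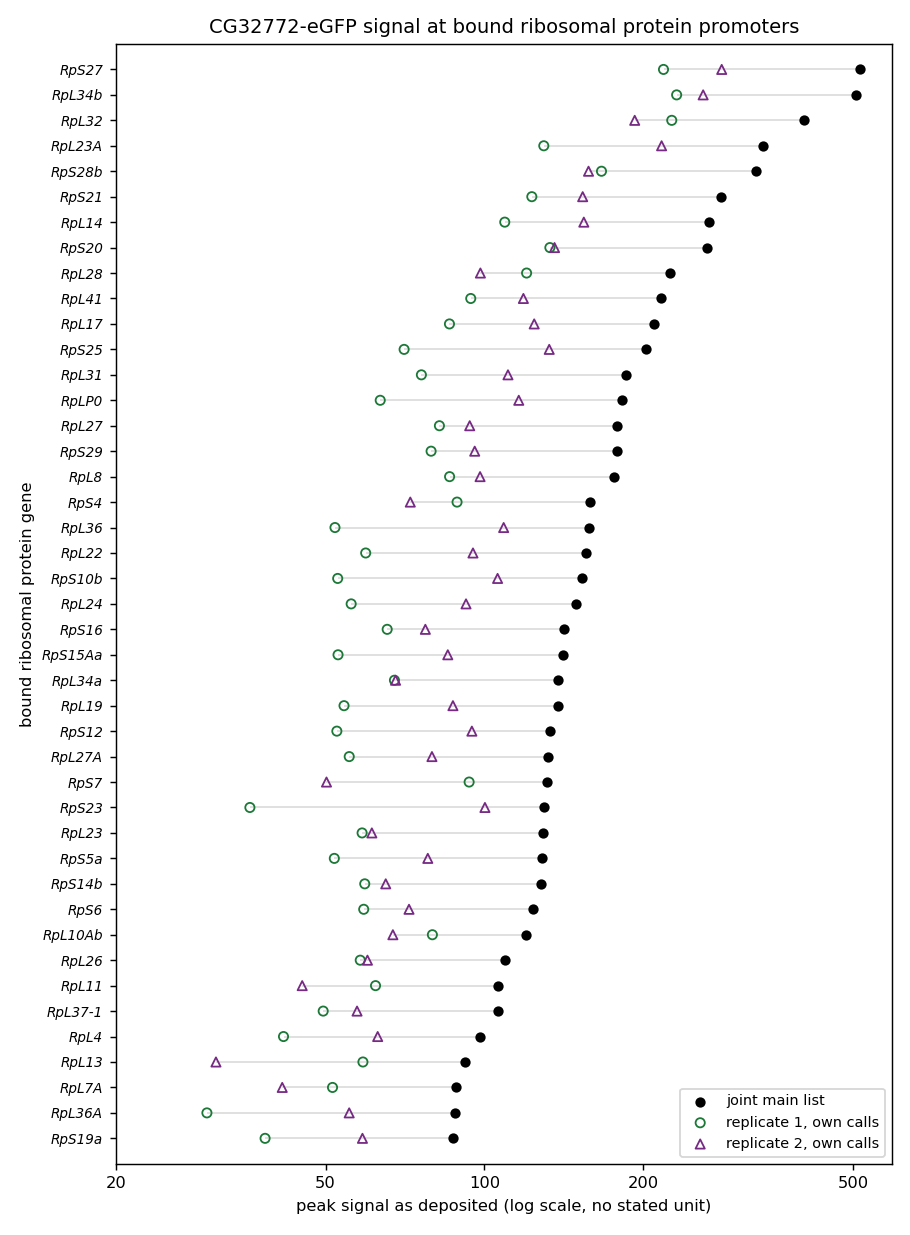
Signal per peak (log axis) of the bound members named in the text, ordered by the signal of the main list, with the ranked-list signals of replicate 1 and replicate 2 beside it. The main-list signals run from 515 at RpS27 to 87.1 at RpS19a without a gap that would set a few genes apart.

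The other 32 bound members had main-list signals of 87.1 to 186. In the large subunit these included RpL31 (186), RpLP0 (182), RpL27 (179), RpL8 (176), RpL36 (158), RpL22 (156), RpL24 (149), RpL34a (138), RpL19 (138), RpL27A (132), RpL23 (129), RpL10Ab (120), RpL26 (110), RpL11 (106), RpL37-1 (106), RpL4 (98.3), RpL13 (91.8), RpL7A (88.5) and RpL36A (87.9). RpLP0 forms the base of the stalk that recruits translation factors, and RpL11 joins the 5S ribosomal RNA during assembly. In the small subunit they were RpS29 (178), RpS4 (159), RpS10b (153), RpS16 (142), RpS15Aa (141), RpS12 (133), RpS7 (131), RpS23 (130), RpS5a (129), RpS14b (128), RpS6 (124) and RpS19a (87.1). RpS6 is the classic substrate of S6 kinase, and RpS23 lies at the centre where codons are read. The lowest bound members were RpS19a, RpL36A and RpL7A.

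The libraries gave similar orders of the members. Over the 66 members with a call in both ranked lists, Spearman's rho of the library signals was 0.811, and over the 44 bound members it was 0.628, across genes that share their libraries. Of the bound members, 32 (72.7%) were in the own lists of both libraries, against 62.4% of the other bound genes. RpL23, RpL11, RpL13 and RpL7A were in the own list of replicate 1 only. RpLP0, RpL8, RpS10b, RpS15Aa, RpS23, RpL4, RpL36A and RpS19a were in that of replicate 2 only. The libraries lay far apart at RpS23, with 35.9 in replicate 1 and 100.3 in replicate 2, at RpS7, with 93.6 in replicate 1 and 50.2 in replicate 2, and at RpL13, with 58.9 in replicate 1 and 31.0 in replicate 2, all chosen after their values were seen. In all, 35 of 44 bound members (79.5%) had the higher value in replicate 2, against 58.1% of 2308 other bound genes with both values. The median ratio of replicate 2 to replicate 1 was 1.23 at members and 1.05 at other bound genes, on scales that are not stated to match. Summits of the libraries lay a median of 17.5 bp apart at bound members and 19.5 bp apart at other bound genes.

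The 48 unbound members were not devoid of calls: 30 of them had a joint ranked call within 500 bp that did not reach the main list. The highest by signal were RpL30 with 96.7, RpL13A with 81.6 and RpLP0-like with 66.4. The call at RpL30 was higher than those of the bound members RpL13, RpL7A, RpL36A and RpS19a, yet it is missing from the main list, while the other joint list and the own list of replicate 2 hold it. It rested mainly on replicate 2, with 11.95 in replicate 1 and 87.1 in replicate 2. Among the next were RpL22-like (66.1), RpS30 (54.1), RpL35A (49.5) and RpL18 (48.9). In RpS30 the ribosomal protein is made as a fusion with a ubiquitin-like domain.

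Of the members unbound in the main list, 6 stood in the thresholded list of a library. RpL7, a large subunit protein, was in both, with 145 in replicate 1 and 177 in replicate 2, but no joint ranked call lay within 500 bp of its start sites. That is rare: of 2382 peaks of replicate 1 that overlap a peak of replicate 2 in the own lists, 6 had no joint ranked call. RpL7 thus counts as unbound by the joint list, while the members with higher values than RpL7 in both libraries were RpS27, RpL34b and RpL32, all bound. RpS27A, made as a fusion with ubiquitin, had 87.2 in the thresholded list of replicate 2 and a ranked call of 53.1 in replicate 1. RpL30, RpL35A (42.8), RpL37A (52.0) and RpL12 (55.1) were likewise in the own list of replicate 2 only. In all, 50 members were in at least 1 thresholded list and 42 in none.

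No call of any ranked list lay near 12 members (13.0%, against 18.6% of all genes). They were RpL5, RpL9, RpL10, RpL15, RpL21, RpL24-like, RpL38, RpS3, RpS3A, RpS9, RpS15Ab and RpS28a, named here after their values were seen. RpL5 carries the 5S ribosomal RNA together with RpL11, which was bound. RpS3 is a small subunit protein at the entry of the messenger RNA. RpS3A lies on chromosome 4, where 0 of 79 other genes had any joint ranked call. The 50 kb on either side of these 12 genes held a median of 60 joint ranked calls, against 112 for the other members and 110 for all genes. The surroundings differed between the 12: RpS3A, RpL5, RpL15, RpL21 and RpL10 had 2 to 30 calls there, while RpS3 had 138, RpL24-like 113 and RpS28a 111. Whether reads could be placed there was not tested.

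Where the members were bound, the summit lay close to the start site. Its median offset was -46 bp (interquartile range -93.3 to -21 bp), against -131 bp at other bound genes (-229 to -65.5 bp). Of 44 members, 36 (81.8%) had the summit within 100 bp of a start site, against 699 of 2339 other bound genes (29.9%). Replicate 1 gave a median offset of -56 bp at members against -138 bp at other genes, and replicate 2 gave -36.5 bp against -131 bp. Members have a median of 2 annotated start sites when bound and other bound genes 1, which can shorten the distance to the nearest. With 1 start site per gene the members' median was -52.5 bp and that of other bound genes -128 bp.

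**Figure D2:**
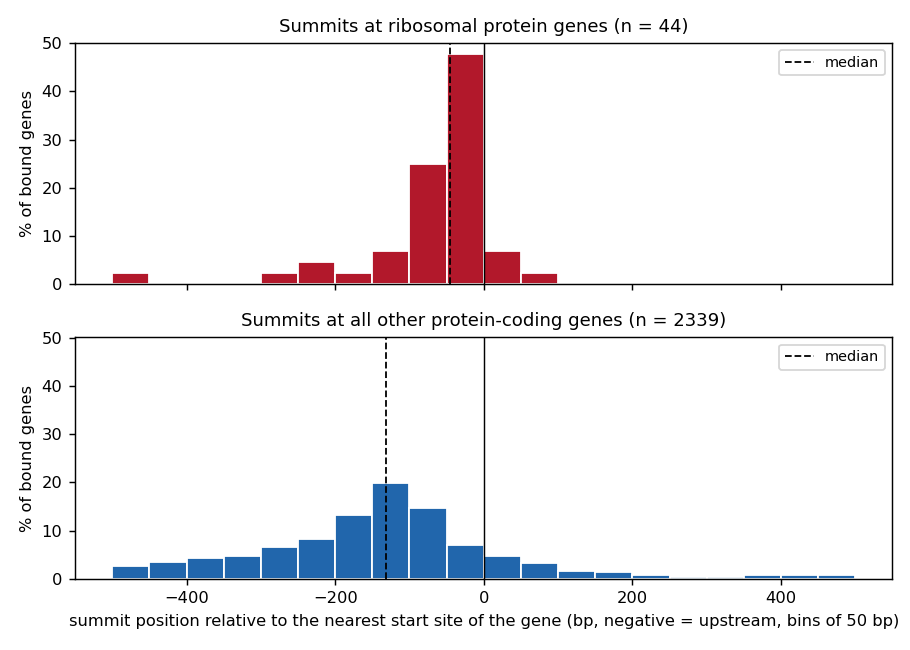
Distance from the start site to the summit in bp (negative upstream) for bound members, above, and for other bound genes, below, as a share of genes per bin. The members gather just upstream of the start site, with a median of -46 bp, while the other genes spread farther upstream with a median of -131 bp.

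The summit was upstream of the start site in 40 of 44 members (90.9%) and in 85.2% of other bound genes. The other 4 were RpL36, with the summit 10 bp inside the gene, RpS15Aa (18 bp inside), RpS7 (29 bp) and RpL26 (78 bp). Among those beyond 100 bp were RpL34b, RpL11, RpS20, RpL32, RpL23, RpL10Ab and RpS6. The farthest was RpS6, whose summit lay at -459 bp in a peak that is shared with its neighbour bys, a gene for assembly of the small subunit. RpS6 is also among the members with more than 1 summit, and a lower summit near its start site keeps it bound with a 200 bp promoter.

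The bound shares of the large and the small subunit were close to each other. In the main list 27 of 54 large subunit genes (50%) and 17 of 38 small subunit genes (44.7%) were bound. The shares were 44.4% and 34.2% in replicate 1, and 51.9% and 47.4% in replicate 2. The difference of 5.26 percentage points in the main list was reversed to -0.292 with a 200 bp promoter and to -5.07 in the upper 50% of the peaks by signal. Median signals of the bound genes were 156 for the large and 142 for the small subunit.

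Fly genes are densely packed, and many promoters serve a pair of genes that point away from each other. Of the members, 36 have such a divergent partner within 500 bp, and 19 of these (52.8%) were bound, against 25 of 56 members without a partner (44.6%). Replicate 1 gave 47.2% with a partner and 35.7% without, and replicate 2 gave 52.8% and 48.2%. At other genes the gap was wider, with 1265 of 3779 bound (33.5%) with a partner and 1074 of 10097 (10.6%) without. The share of bound members without a partner was thus above that of other genes with one. Signals were higher at bound members with a partner, with a median of 186, than at those without, with a median of 132.

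**Figure D3:**
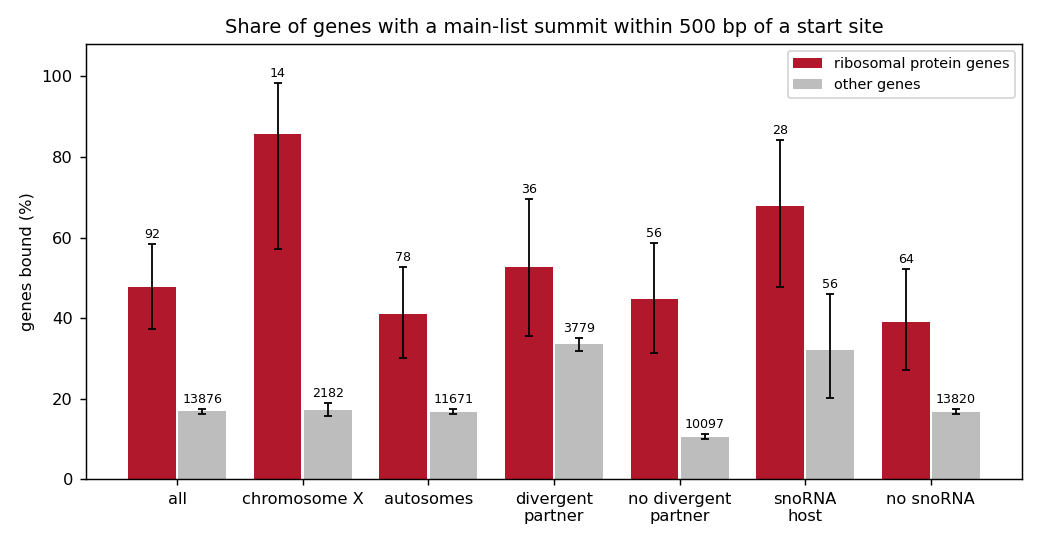
Share of genes bound (percent) among the ribosomal protein genes and among the other genes, for all genes and split by chromosome, divergent partner and small nucleolar RNAs in introns (snoRNA), with exact binomial 95% intervals as error bars and the number of genes above each bar. The members lie above the other genes in each pair of bars, and the X-linked members are the highest at 85.7%.

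At the 19 shared promoters the summit was nearer the start of the ribosomal protein gene in 15 and nearer the start of the partner in 4. Among other bound genes with a partner it was nearer the start of the gene in question in 53.3%, where a pair can count from both sides. The summit lay between the start sites in 17 of the 19. Among the strongest members the partners were Nup37, a nuclear pore gene, at RpS27, CG8132 at RpL34b, CG7943 at RpL32, CG3104 at RpS21, Nelf-E, a subunit of the elongation factor NELF, at RpL14, and CG17271 at RpS20. RpL28 is paired with eIF1, a translation initiation factor, and they share the peak. RpL13 is paired with Dref, the gene of the factor that binds the DRE. Its summit lay 12 bp from the start of Dref and at -96 bp from that of RpL13, chosen for mention after its values were seen.

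A larger share of the ribosomal protein genes was bound on the X chromosome than on the autosomes, a split chosen after the data were seen. On X 12 of 14 members (85.7%, interval 57.2 to 98.2%) were bound, against 32 of 78 on the autosomes (41.0%, interval 30.0 to 52.7%). At other genes the shares were 17.2% on X and 16.8% on the autosomes. Replicate 1 held 9 of the X-linked members and 28 of the autosomal ones, and replicate 2 held 11 and 35. The X-linked members not bound were RpL35 and RpS14a. Bound signals ran the other way, with a median of 135 on X and 167 on the autosomes. On the autosomes 5 of 19 members were bound on 2L, 8 of 21 on 2R, 9 of 14 on 3L and 10 of 23 on 3R. The shares of other genes on these arms were 16.2%, 14.9%, 18.4% and 18.1%. RpS3A, the member on chromosome 4, was not bound, and neither was any of the 79 other genes of that chromosome. The X-linked members also differ in base composition, with a median promoter GC content of 41.8% against 36.2% on the autosomes, and many belong to the gene pairs described next. Within single-copy members the difference between X and the autosomes was 35.0 percentage points, against 44.7 points in all members.

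Some ribosomal proteins are encoded by a pair or a trio of genes, often with a broadly used copy and a copy of narrower use. The members hold 13 such families with 27 genes, and in 11 families exactly 1 copy was bound. The bound copies were RpL10Ab, RpL22, RpL24, RpL37-1, RpLP0, RpS10b, RpS14b, RpS15Aa, RpS19a, RpS28b and RpS5a. RpS28b had a signal of 327, while its copy RpS28-like had a joint ranked call of 19.6 and RpS28a had none. RpS5a had 129 and its copy RpS5b, a gene known for its role in the ovary, had a call of 31.2. RpL22 had 156 and RpL22-like, known from the male germline, had 66.1. In each of these 11 families the unbound copies had a lower call than the bound copy or none. A copy counts as bound by a call in the main list, so this order follows largely from the rule.

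The other unbound copies had weaker calls of 15.1 at RpL10Aa, 24.99 at RpL37-2, 66.4 at RpLP0-like, 28.2 at RpS10a, 47.0 at RpS14a and 35.9 at RpS19b, and RpL24-like and RpS15Ab had none. RpL34 was the family with both copies bound, RpL34b at 508 and RpL34a at 138. RpL7 and RpL7-like made the family with none in the main list, where RpL7 was in the own lists of both libraries. All 5 members whose name ends in -like were unbound (interval of the bound share 0 to 52.2%), and 4 of them had a joint ranked call. With 5 genes this cannot be set apart from the 17.1% of all genes. Of the 13 bound copies 8 lie on X, and of the 14 unbound copies 1 does. The 300-bp promoters of these copies are 56.0 to 64.7% identical at best. No identity of unrelated promoters is given for comparison, so shared sequence cannot be read from these values. Family genes as a whole were bound as often as single-copy members, with 13 of 27 (48.1%) and 31 of 65 (47.7%), and 4 of the 5 single-copy members on X were bound.

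**Figure D4:**
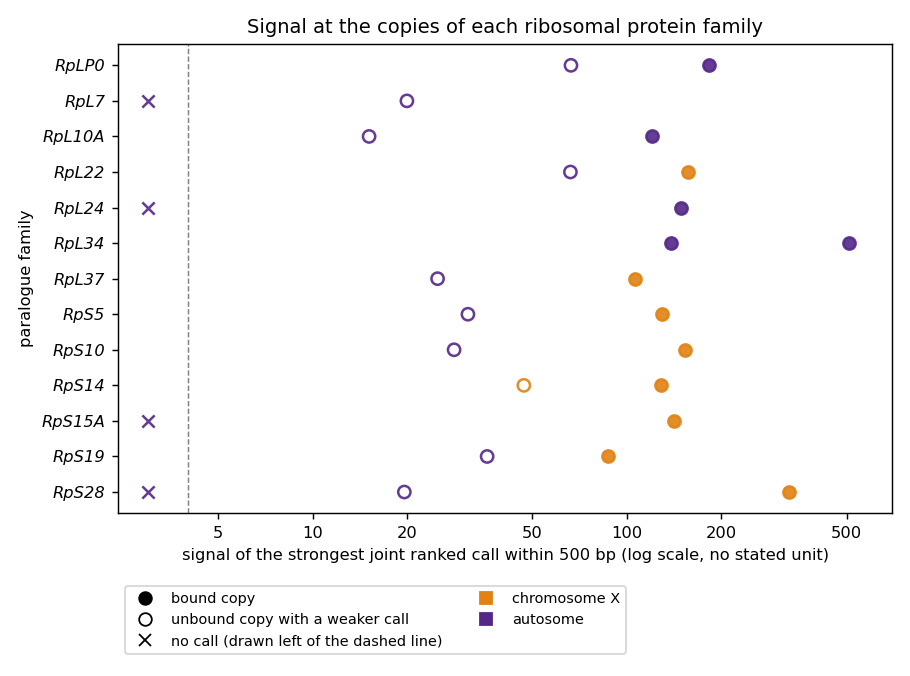
Joint signal per call (log axis) of each gene in the 13 families of paralogous ribosomal protein genes, with filled points for bound copies, open points for unbound copies, crosses left of the dashed line for genes with no joint call, and colour for X or autosome. In 11 families 1 bound copy lies to the right of the others, RpL34 has both copies bound, and RpL7 has no joint call although both libraries list it.

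Promoters of bound members were slightly richer in G and C. The median GC content of the 300-bp promoter was 38.3% at bound and 35.7% at unbound members, while among other genes it was 37.3% at bound and 38.3% at unbound ones. Among members without a partner the values were 40.3% bound and 34.3% unbound, and among members with a partner both were 38.3%. On the autosomes alone they were 37.2% and 35.7%. The difference shrank to 0.899 percentage points when GC was taken over 500 bp on either side of the start site. Bound members were also somewhat longer genes, with a median of 1437 bp against 1140 bp for unbound members. The same direction held among other genes, with 3420 bp at bound and 1994 bp at unbound ones.

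The summits at members were richer in G and C than the other summits. Windows reaching 50 bp to either side of the 44 members' summits had a median GC content of 47.5%, against 32.7% at 1651 other promoter summits and 33.7% at 3004 summits away from promoters. A run of 7 A or 7 T, held by 20.9% of the other promoter summits and 21.6% of the distal ones, occurred at 1 of 44 members (2.27%). Counted next were the 10 7-base sequences most in excess at the other summits over windows 500 bp away, all rich in A and T. They were picked from those other summits, which raises their share there. At least 1 of them occurred at 14 members (31.8%), against 62.5% of other promoter summits. The position of the summit moves with this: at a fixed window of the same width centred at -46 bp from the start, the GC content was 47.5% at bound and 41.1% at unbound members, and 42.6% at bound and 41.6% at unbound other genes. In that fixed window runs of A or T were held by 6.82% of bound members and 8.68% of bound other genes.

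Promoter elements known from flies were counted in the window from 250 bases before to 50 bases after the main start site, on both strands unless stated. The TCT initiator, searched as TCTTT on the gene's strand within 10 bases of the start, was held by 16 of 44 bound members (36.4%) and 22 of 48 unbound members (45.8%), against 1.89% of other genes and 2.15% of all genes. It was frequent in bound and unbound members alike, and rare in other genes. The TATA box (TATAAA, 15 to 45 bases upstream on the gene's strand) was held by 1 of 92 members, against 8.78% of all genes. The common initiator, searched as TCAGT within 10 bases of the start, was held by 2.27% of bound and 0% of unbound members, against 12.2% of all genes. The sequence CAGGTAG, bound by the early embryonic activator Zelda, was held by 0 of 92 members and 1.69% of other genes.

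The DRE, TATCGATA, was more frequent in bound than in unbound members. It was held by 19 of 44 bound members (43.2%) and 9 of 48 unbound members (18.8%), against 12.1% of bound and 8.48% of unbound other genes and 9.23% of all genes. Put the other way, 19 of 28 members with a DRE were bound (67.9%), against 25 of 64 without (39.1%). Replicate 1 gave 57.1% with and 32.8% without, and replicate 2 gave 67.9% and 42.2%. At other genes the gap was small, with 22.4% bound with a DRE and 16.3% without. Without a divergent partner, 11 of 25 bound members (44.0%) and 4 of 31 unbound members (12.9%) held it. With a partner the gap was smaller, with 8 of 19 bound members (42.1%) and 5 of 17 unbound members (29.4%). The split by DRE was examined further after the counts were seen, so no support is drawn from it.

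In the 19 bound members the DRE lay at a median of -57 bp from the start, in 18 within 100 bp of it, as in the stretches of RpL28, RpS25 and RpL27 printed above. Its centre lay a median of 27.5 bp from the summit, and within 50 bp of it in 13. At the summits themselves, 13 of 44 windows at members held TATCGATA (29.5%), against 2.30% of other promoter summits and 0.200% of distal ones. Summit position enters this contrast. In a fixed window of the same width centred at -46 bp, 36.4% of bound and 14.6% of unbound members held it. The shares there were 7.82% of bound and 5.89% of unbound other genes. Signals did not rise with the DRE: bound members with a DRE had a median of 141 and a maximum of 225, and those without had a median of 159. The 8 strongest bound members hold no full DRE. RpL32 and RpS28b among them hold the 7 bases ATCGATA. These occurred in 54.5% of bound members, 27.1% of unbound members and 18.0% of all genes. ATCGATA was picked after the data were seen because it leads at members' summits, so no support is drawn from its shares. Of the bound members, 25 hold the DRE or CGCAGCCAA and 19 hold neither. A match describes letters in this window and does not show that DREF or the tagged protein bound them.

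**Figure D5:**
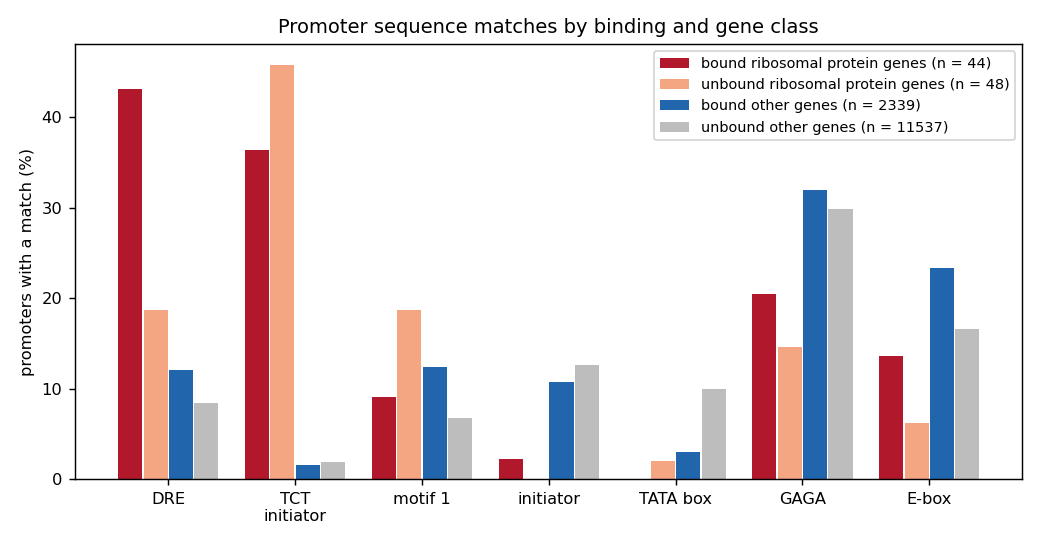
Percent of 300-bp promoters that hold each element, in bound members, unbound members, bound other genes and unbound other genes. The TCT initiator is frequent in bound and unbound members alike, while the DRE is at 43.2% in bound and 18.8% in unbound members.

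The other elements searched were less distinct. Motif 1, GGTCACAC, was held by 9.09% of bound and 18.8% of unbound members, against 7.77% of all genes. GAGAG, the core of GAGA factor sites, was held by 20.5% of bound and 14.6% of unbound members, against 30.2% of all genes. The E-box CAGCTG was held by 13.6% of bound and 6.25% of unbound members, against 17.7% of all genes. The E-box CACGTG, which Myc and its partners bind, was held by 9.09% of bound and 12.5% of unbound members, against 4.2% of all genes.

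Many ribosomal protein genes carry small nucleolar RNAs in their introns, which guide the modification of ribosomal RNA. Of 28 such host genes among the members 19 were bound (67.9%), against 25 of 64 without (39.1%), a split chosen after the data were seen. Replicate 1 held 17 of the hosts and 20 of the rest, and replicate 2 held 18 and 28. Among other genes 18 of 56 hosts (32.1%) and 16.8% of the rest were bound.

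Against the 47.8% of cytosolic ribosomal protein genes and the 17.1% of all genes stand the shares of other gene lists of protein synthesis. The differences were not tested. Of 73 mitochondrial ribosomal protein genes, which encode the separate ribosome of mitochondria, 21 (28.8%) were bound. The strongest were mRpL41 with 2172, mRpS10 with 1799 and mRpS23 with 1672, all above the 515 of RpS27. Of 31 ribosome biogenesis genes 10 (32.3%) were bound, among them Ns2 (401) and Mybbp1A (158). Of 54 translation factor genes 13 (24.1%) were bound, led by eIF6 (1568), eIF5B (304) and eEF1gamma (302). None of 7 genes of RNA polymerase I subunits, which transcribe the large ribosomal RNA precursor, was bound, in the main list or in either own list. With 7 genes this cannot be set apart from the 17.1% of all genes. Median summit offsets in the first 3 of these lists were -177, -105.5 and -97 bp, all farther from the start than the -46 bp of the cytosolic genes.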

How the data were processed

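Chromatin immunoprecipitation with an antibody to GFP was sequenced from 2 biological replicates of whole embryos, 1 group, with chromatin sonicated to 200 to 800 bp per the labels. Per the descriptions deposited with the libraries, the authors called peaks on dm6 from library alignments and a control alignment. Which aligner and peak caller were used is not given in the sources used here. Each list holds per peak a score, which in the thresholded lists is at least 830, a signal and a −log10 q-value, all as deposited by the authors, and the summit position. The signal was used only within a list or side by side, since its normalization is not stated. The deposited score and −log10 values were not tested again.

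The joint conservative thresholded list was the main list. Its 47 peaks on other sequences were left out. Gene models were those of Ensembl release 115 (BDGP6.54) and sequence was read from the RefSeq copy of that assembly. Genes with a summit within 500 bp of any start site counted as bound, and a divergent partner was a protein-coding start on the other strand within 500 bp upstream. The strongest summit of a gene gave its signal and offset. Intervals are exact binomial (Clopper-Pearson, 95%) and cover counting error only. Libraries came from 1 group, so there is no comparison of conditions and no test over samples. Shares were computed with Python 3.11.15, numpy 2.4.6, pandas 2.3.3 and scipy 1.17.1, and figures with matplotlib 3.10.9. The binding rule was tested on simulated data.

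The genes named with full values are the 12 bound members with the highest signal and CG32772. Others are named as bound, as bound in 1 library, as paralogues, as the 10 unbound members with the highest call, or as the 3 strongest of each list of related genes. Of 33 biogenesis genes asked for, 31 were found in the annotation. Some genes that these rules name are not reported here. Members, lists and rules were chosen with earlier results of these data known. The splits by chromosome, DRE and snoRNA, and the sequences CGCAGCCAA and ATCGATA, were chosen after seeing the data. Alternatives were the own list of each library, the other joint list, the upper 50% by signal, other promoter, partner and GC windows, merging summits within 1 kb, and leaving out or merging paralogues.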

Additional observations from a re-analysis of the deposited data

How the results depend on the processing

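The number of bound members (44) was 36 to 46 under all alternatives, and their median summit offset (-46 bp) was -56 to -36.5 bp. The difference between large and small subunit (5.26 percentage points) was 4.48 to 10.2 with 1 library left out, 0.480 with paralogues counted once, -5.07 in the upper 50% of peaks and -0.292 with a 200 bp promoter, and the cause was not tested. The difference by divergent partner (8.13 points) was 14.3 with paralogues counted once and 21.2 with partners within 1000 bp. The GC difference (2.67 points) was 1.83 to 3.0 with 1 library left out and 0.899 over 500 bp on either side of the start. In splits added after seeing the data, X minus autosomes (44.7 points) was 28.4 to 33.7 with 1 library left out, 35.0 in single-copy members and 57.6 in members without a partner. Among members with a partner 2 of 3 on X (66.7%) and 17 of 33 on the autosomes (51.5%) were bound, a smaller contrast on few genes. The difference by DRE (28.8 points) was 24.3 to 25.7 with 1 library left out, 39.2 without a partner and 31.5 on the autosomes. Among members with a partner the contrast was smaller: 42.1% of bound and 29.4% of unbound ones held the DRE. The other 46 values moved by less than the spread between libraries, or by less than 1.5 times for counts. Depth is unknown, so a promoter without a call may be one that these libraries could not show as bound. No paired analysis was possible because there is 1 group of 2 libraries.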

Other observations

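Some peaks at ribosomal protein genes also serve other genes of protein synthesis, noted after the values were seen. The peak of RpL28 (signal 225) is also that of eIF1, an initiation factor, the peak of RpL36 (158) is also that of Mybbp1A, a nucleolar protein, and the peak of RpS6 (124) is also that of bys. Each such peak was counted for both genes, so the counts of the lists are not fully independent.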
